A study of Homo sapiens with 12 samples.

Results

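The APOBEC3 genes encode 7 cytidine deaminases that lie side by side on human chromosome 22, and their RNA was followed in CAL27 and HSC3 cells with and without silencing of MUC1. Members were chosen by symbol as the rows APOBEC3A, APOBEC3B, APOBEC3C, APOBEC3D, APOBEC3F, APOBEC3G and APOBEC3H of the count tables, and all 7 of 7 were found among 39368 rows. CAL27 and HSC3 are established HPV-negative head and neck squamous cell carcinoma (HNSCC) lines. All cells carried a puromycin-selected tet-MUC1shRNA vector, in which doxycycline (DOX) switches on a short hairpin RNA against MUC1, the gene of a transmembrane mucin with a signaling subunit, MUC1-C. RNA-seq of poly(A) RNA was performed after 7 days with 0.1% DMSO as the vehicle or with 500 ng/ml DOX, on 3 libraries in each of the 4 groups. CAL27 cells were grown in DMEM and HSC3 cells in MEM, so line, medium and any difference in sequencing between the lines cannot be told apart. No library of a control hairpin with DOX was analysed here, so loss of MUC1 and exposure to DOX cannot be told apart either.

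APOBEC3 enzymes remove an amino group from cytosine in single-stranded DNA or RNA and leave uracil. They restrict retroviruses and retrotransposons, and several are interferon-inducible in immune and epithelial cells. APOBEC3A and APOBEC3B are known as mutators of tumor genomes, and their C-to-T and C-to-G mutations at TpC sites are common in squamous carcinomas. The uracil is removed by uracil-DNA glycosylase, and translesion polymerases can copy the abasic site that is left.

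Levels are given as CPM, a gene's counts relative to the size of its library, after TMM scaling of the 12 libraries together, a scaling that sets the bulk of genes level between libraries. The libraries held 89730914 to 169065103 counts, and 19128 to 24685 genes had a count. The estimated number of counts per RNA molecule was 2.64 to 3.6 in CAL27 libraries, 4.41 to 7.68 in HSC3 vehicle libraries and 9.2 to 17.5 in HSC3 DOX libraries. The estimate ran too high on simulated libraries and serves only to order these, but a low count in HSC3 cells stands for few molecules. MUC1 itself fell in both lines. In CAL27 cells it went from 55.3 ± 2.79 CPM (SD, n = 3) with vehicle to 2.98 ± 0.249 CPM with DOX, which is -4.21 on the log2 scale. In HSC3 cells it went from 1.76 ± 0.186 to 0.236 ± 0.0928 CPM, or -2.88. The adjusted p in edgeR's quasi-likelihood test was 1.6e-19 in CAL27 and 0.0002 in HSC3 cells. The squamous label held in that 7 of 7 squamous epithelial markers were at 1 CPM or more in every group. Their summed level was 5880 to 6130 CPM with vehicle and 2850 to 3040 CPM with DOX in CAL27 cells, and 5420 to 6010 and 2440 to 2770 CPM in HSC3 cells. KRT5, a basal keratin, made up most of the sum, at 3700 and 1790 CPM in CAL27 and 2890 and 1440 CPM in HSC3 cells. By the adjusted p 5 of the 7 markers were lower in each line, while EPCAM, an epithelial adhesion molecule, rose by 0.40 on the log2 scale in CAL27 and by 0.87 in HSC3 cells, and CDH1 was at 0.03 and -0.02. Of 10 leukocyte markers, CD2 and MS4A1 were at 0 in all libraries. The leukocyte list summed to 32.2 to 35.2 CPM and 12 to 16.3 CPM in CAL27 cells, and to 3.07 to 3.43 and 0.667 to 2.37 CPM in HSC3 cells. Most of the CAL27 sum was HLA-DRA, an MHC class II gene that interferon gamma can also induce in epithelial cells, at 27.0 CPM with vehicle and 7.52 CPM with DOX. The other leukocyte markers did not share a direction in CAL27 cells, where CSF1R rose from 1.75 to 2.92 CPM (edgeR adjusted p = 0.00098). CD14 went from 4.7 to 3.87 CPM with DOX there and CD3E from 0.252 to 0.285 CPM, neither past the adjusted p (0.05 and 0.73 in edgeR). In HSC3 cells HLA-DRA changed by -1.53 on the log2 scale (edgeR adjusted p = 0.02). CSF1R was at -1.28 and CD14 at -0.29 there, neither past the adjusted p (0.12 and 0.77 in edgeR). EPCAM, CDH1, CSF1R, CD14 and CD3E were chosen after their values were seen. The 6 fibroblast markers, with COL3A1 at 0 throughout, summed to 13.4 to 14.1, 10.2 to 10.6, 4.2 to 5.0 and 5.97 to 9.34 CPM in the same order of groups. The part of these shifts in the APOBEC3 values was not tested. In such bulk RNA, fewer cells of a kind and less RNA per cell cannot be told apart.

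With vehicle, APOBEC3G was 41.4-fold lower, APOBEC3A 3.18-fold lower and APOBEC3F 2.79-fold lower in HSC3 than in CAL27 cells. The APOBEC3A difference rests on only 9 to 19 counts in each HSC3 vehicle library. After DOX, APOBEC3F was 1.43-fold higher and APOBEC3C 1.23-fold lower in HSC3 cells, while APOBEC3F and APOBEC3G were 1.10-fold and 1.12-fold lower in CAL27 cells, differences that did not pass the adjusted p without DOX library 5 or in a fit of all 12 libraries. APOBEC3B, the tumor mutator with the larger RNA level, passed no test of the DOX response.

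Below, called means a fold change above 2 together with an edgeR p, adjusted after Benjamini and Hochberg, of less than 0.05. In CAL27 cells 6 members passed the filter on low counts, 2 were lower and 0 higher by the adjusted p, and 0 were called. Of the 19239 genes tested there, 21.8% were lower and 22.6% higher by the adjusted p, and 5.11% and 1.31% were called. In HSC3 cells 6 members passed the filter, 1 was lower and 1 higher by the adjusted p, and 0 were called. The background in HSC3 cells was 15.4% lower and 13% higher by the adjusted p, with 4.4% and 1.58% called, among 18021 genes. At an unadjusted p under 0.05 the members' counts were the same as by the adjusted p, 2 and 0 in CAL27 and 1 and 1 in HSC3 cells, and DESeq2 called 0 in both lines. In each line the members' share past the adjusted p was near the background in a set this small.

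Between the lines with vehicle, 7 members were tested, 4 were lower and 1 higher in HSC3 cells by the adjusted p in edgeR, and 3 were called lower and 0 higher. At an unadjusted p under 0.05 the counts were 5 and 1, and DESeq2 called 4 lower and 0 higher. Of 20694 genes, 32.3% were lower and 30.6% higher by the adjusted p, and 18.7% and 13.2% were called. The baseline comparison shares its vehicle libraries with the DOX comparisons. The median log2 difference over all genes was -0.118, against -1.48 for the 7 members.

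**Figure D1:**
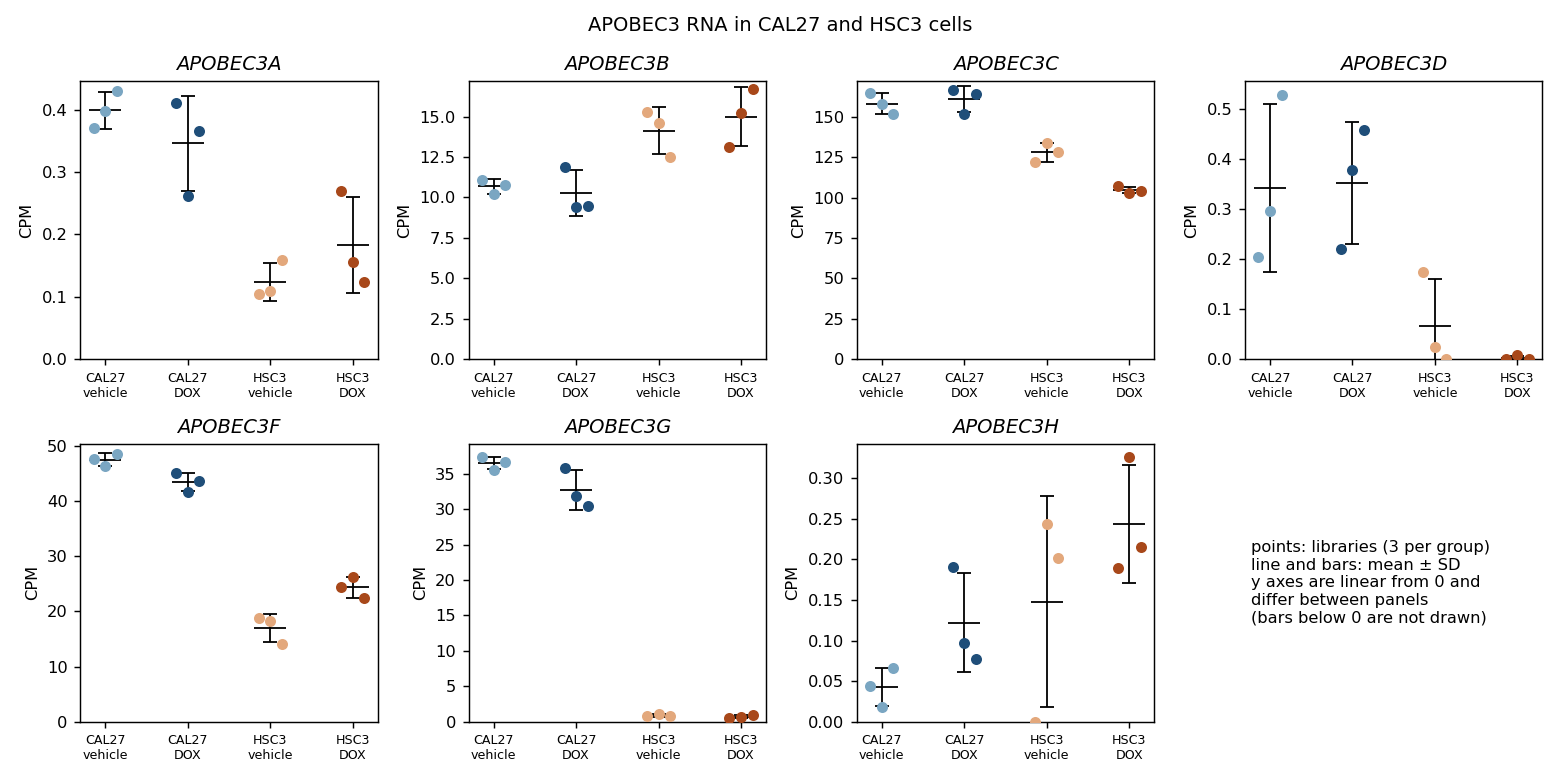
RNA level of each APOBEC3 gene in CPM on a linear axis from 0 that differs between panels, with points for the 12 libraries and a line and bars for the mean ± SD of 3 libraries per group. APOBEC3G is at 35.6 to 37.3 CPM in CAL27 vehicle and 0.754 to 1.14 CPM in HSC3 vehicle libraries, and APOBEC3F in HSC3 cells rises from 14 to 18.8 CPM with vehicle to 22.5 to 26.3 CPM with DOX.

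The genes lie in the order A, B, C, D, F, G and H on the plus strand of chr22 in GRCh38 (GENCODE v44), from APOBEC3A at chr22:38952741-38963184 and APOBEC3B at chr22:38982347-38992804 to APOBEC3H at chr22:39097224-39104067. Between them are APOBEC3C at chr22:39014257-39020352, APOBEC3D at chr22:39021113-39033277, APOBEC3F at chr22:39040604-39055972 and APOBEC3G at chr22:39077067-39087743. They arose by duplication and remain similar enough that short reads can match several members. Of all windows of 75 bases in their exons, 20% in APOBEC3B, 12.2% in APOBEC3A, 11% in APOBEC3D, 8.78% in APOBEC3F and 4.47% in APOBEC3G also occurred in another member. APOBEC3C shared 0.265% and APOBEC3H 0.0%. The read length and the treatment of reads with several matches were not given in the sources used here, so levels of the members with shared windows are uncertain to that extent. The coding sequences of APOBEC3F and APOBEC3G, which both encode tandem deaminase domains, begin with an identical run of 142 bases. It is shown because these neighbours are compared below, and reads that fall inside it cannot tell them apart. It spans 2 coding exons at chr22:39040961-39043061 in APOBEC3F and chr22:39077362-39079056 in APOBEC3G on the plus strand, with the intron left out and the start codon in capitals.

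APOBEC3F and APOBEC3G: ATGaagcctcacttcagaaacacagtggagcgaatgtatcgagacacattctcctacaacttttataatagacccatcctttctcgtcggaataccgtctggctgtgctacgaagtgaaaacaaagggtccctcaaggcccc

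The longest run shared by any pair of members was 222 coding bases of APOBEC3D and APOBEC3F. It is shown because APOBEC3D, at few counts, borders on a far more abundant copy. It spans 2 coding exons at chr22:39029494-39031889 in APOBEC3D and chr22:39049556-39052269 in APOBEC3F, and no base is in capitals since the run is identical throughout.

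APOBEC3D and APOBEC3F: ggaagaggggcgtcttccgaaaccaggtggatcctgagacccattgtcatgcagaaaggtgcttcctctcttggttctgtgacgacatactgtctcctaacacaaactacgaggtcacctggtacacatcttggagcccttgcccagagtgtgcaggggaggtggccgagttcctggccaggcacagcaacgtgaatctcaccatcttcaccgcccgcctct

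APOBEC3F, a restriction factor of retroviruses that is packaged into virions, was higher with DOX in HSC3 and lower in CAL27 cells. In HSC3 vehicle libraries it was at 18.8, 18.2 and 14 CPM and in HSC3 DOX libraries at 24.4, 26.3 and 22.5 CPM. All 3 DOX libraries were above all 3 vehicle libraries. On the log2 scale the DOX libraries were higher by 0.52 ± 0.12 (SE; 95% interval 0.24 to 0.79, edgeR adjusted p = 0.0093). In CAL27 cells APOBEC3F was at 47.6, 46.3 and 48.6 CPM with vehicle and at 45.0, 41.7 and 43.7 CPM with DOX. These groups did not overlap either, with all DOX libraries below the vehicle libraries, but the step was small, at -0.13 ± 0.044 on the log2 scale (interval -0.22 to -0.04, edgeR adjusted p = 0.019). The adjusted p in edgeR did not pass without CAL27 vehicle library 3 (log2 fold change -0.126, adjusted p = 0.057), without CAL27 DOX library 5 (-0.105, adjusted p = 0.11) or in a fit of all 12 libraries (-0.129, adjusted p = 0.41).

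The difference between the responses of the lines was tested as an interaction in 1 edgeR fit of the 12 libraries. For APOBEC3F the response in HSC3 cells exceeded that in CAL27 cells by 0.65 ± 0.13 on the log2 scale (interval 0.36 to 0.93, adjusted p = 0.0026). By this test the response of 1 member was lower and of 1 higher in HSC3 cells by the adjusted p, where 12.3% and 8.25% of 20694 genes were. No member was called by edgeR in either direction, against 3.02% and 2.19% of genes, with 2 lower and 1 higher at an unadjusted p under 0.05. DESeq2 called 1 member lower, APOBEC3D, which had at most 1 count in each HSC3 DOX library. Even after DOX, APOBEC3F in HSC3 cells stayed below the 41.7 CPM of the lowest CAL27 DOX library.

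APOBEC3G, the restriction factor of HIV-1 lacking Vif, was the member that separated the lines most. It was at 37.3, 35.6 and 36.7 CPM in CAL27 vehicle libraries and at 0.798, 1.14 and 0.754 CPM in HSC3 vehicle libraries. The lines were far apart, and the spread within each was small beside the gap. The log2 difference of HSC3 from CAL27 was -5.37 ± 0.16 (interval -5.72 to -5.02, edgeR adjusted p = 2.7e-13). With DOX, CAL27 libraries were at 35.8, 31.9 and 30.4 CPM. The highest of these lay inside the vehicle range and the other two below it. The change was -0.16 ± 0.054 (interval -0.28 to -0.05, edgeR adjusted p = 0.017). The test was not passed without CAL27 DOX library 5 (log2 fold change -0.149, edgeR adjusted p = 0.075), without CAL27 DOX library 6 (-0.112, adjusted p = 0.062) or in the fit of 12 libraries (-0.16, adjusted p = 0.45). In HSC3 cells DOX libraries were at 0.526, 0.668 and 0.901 CPM, from 78, 90 and 109 counts, and overlapped the vehicle libraries at 92, 94 and 90 counts. There the log2 fold change was -0.36 (interval -1.16 to 0.43, edgeR adjusted p = 0.53), so a change of either sign of the size seen for APOBEC3C in that line could not be detected. The interaction for APOBEC3G was -0.19 (interval -0.67 to 0.29, edgeR adjusted p = 0.64).

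APOBEC3C, a member with a single deaminase domain and weak antiviral activity, was the most abundant in both lines. In HSC3 cells it was at 122, 134 and 128 CPM with vehicle and at 107, 103 and 104 CPM with DOX. All 3 DOX libraries were below the vehicle libraries, a log2 fold change of -0.29 ± 0.062 (interval -0.43 to -0.16, edgeR adjusted p = 0.0044). CAL27 libraries were at 165, 158 and 152 CPM with vehicle and at 167, 152 and 164 CPM with DOX. These groups overlapped almost fully, with a log2 fold change of 0.02 (interval -0.07 to 0.11, edgeR adjusted p = 0.72), an interval that leaves out a change as large as that in HSC3 cells. The interaction was -0.31 ± 0.076 (interval -0.48 to -0.15, edgeR adjusted p = 0.0082). With vehicle APOBEC3C was also lower in HSC3 than in CAL27 cells, without overlap, by a log2 difference of -0.31 ± 0.054 (edgeR adjusted p = 0.00012). When libraries were scaled by their totals this difference was -0.58 (edgeR adjusted p = 3.5e-08), and that scaling moved the median of all genes by -0.27.

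**Figure D2:**
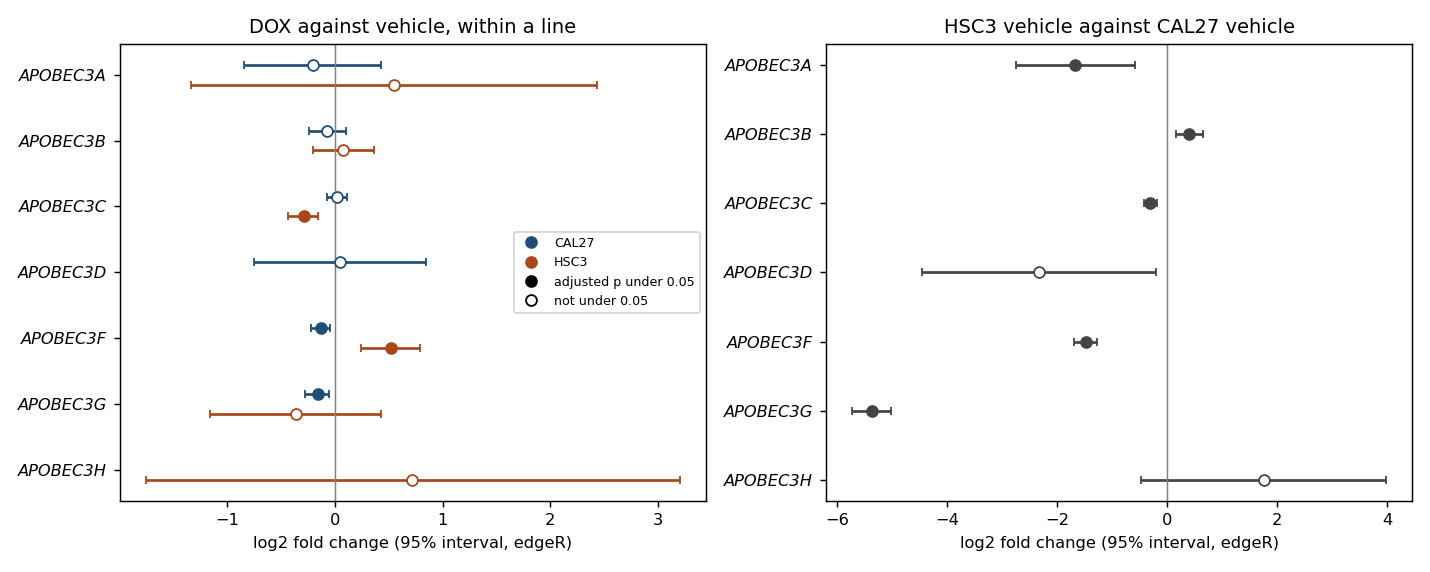
Log2 fold changes with 95% intervals from edgeR, for DOX against vehicle within CAL27 (blue) and HSC3 (orange) on the left and for HSC3 against CAL27 vehicle libraries on the right, with filled points at an adjusted p under 0.05. APOBEC3D in HSC3 and APOBEC3H in CAL27 cells had too few counts for the DOX test, and APOBEC3G at -5.37 is the farthest from 0.

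APOBEC3B, a nuclear mutator in carcinomas, was the second of the members by RNA level per length in HSC3 cells. CAL27 vehicle libraries were at 11.1, 10.2 and 10.8 CPM and CAL27 DOX libraries at 11.9, 9.39 and 9.49 CPM. The DOX libraries spanned the vehicle libraries on both sides. In HSC3 cells APOBEC3B was at 15.3, 14.6 and 12.5 CPM with vehicle and at 13.1, 15.2 and 16.7 CPM with DOX, again with overlap. The log2 fold change was -0.07 in CAL27 (interval -0.24 to 0.10, edgeR adjusted p = 0.54) and 0.08 in HSC3 cells (interval -0.20 to 0.36, edgeR adjusted p = 0.71). These intervals contain changes of up to 0.36 on the log2 scale, so a smaller change was not detectable. The interaction was 0.15 (interval -0.20 to 0.50, edgeR adjusted p = 0.61). With vehicle APOBEC3B was the one member past the adjusted p that was higher in HSC3 cells, by 0.40 ± 0.12 on the log2 scale (interval 0.15 to 0.65, edgeR adjusted p = 0.0073), and the lines did not overlap. Scaled by library totals, the difference was 0.13 (edgeR adjusted p = 0.35). APOBEC3B-AS1, the antisense gene that lies over 12.9% of the exon bases of APOBEC3B, had 0 counts in all 12 libraries.

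APOBEC3A, a mutator that is strongly interferon-inducible in myeloid cells, was near the limit of detection. It had 51, 43 and 52 counts in CAL27 vehicle libraries and 43, 27 and 47 counts in CAL27 DOX libraries. HSC3 libraries had 12, 9 and 19 counts with vehicle and 40, 21 and 15 counts with DOX. DOX and vehicle libraries overlapped in both lines. The log2 fold change was -0.20 in CAL27 (interval -0.84 to 0.43, edgeR adjusted p = 0.64) and 0.55 in HSC3 cells (interval -1.33 to 2.43, edgeR adjusted p = 0.70). Between vehicle libraries the lines did not overlap, at 0.398 ± 0.0296 CPM in CAL27 and 0.124 ± 0.0304 CPM in HSC3 cells (n = 3 each). The log2 difference was -1.67 ± 0.51 (interval -2.75 to -0.59, edgeR adjusted p = 0.0094).

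APOBEC3D and APOBEC3H, both restriction factors, were at or near the floor. APOBEC3D had 28, 32 and 64 counts with vehicle and 23, 39 and 59 counts with DOX in CAL27 cells, with a log2 fold change of 0.05 (interval -0.75 to 0.85, edgeR adjusted p = 0.93). In HSC3 cells it had 20, 2 and 0 counts with vehicle and 0, 1 and 0 counts with DOX, and the DOX response was not tested. A count of 0 allows up to 3 counts, or 0.0202 CPM in HSC3 DOX library 1, if each count is a separate molecule. That library had an estimated 17.5 counts per molecule, so its floor is higher, by an amount not determined here. Such floors cover counting error only. All 3 HSC3 vehicle libraries were below the CAL27 vehicle libraries, by a log2 difference of -2.33 (interval -4.45 to -0.21, edgeR adjusted p = 0.052). Over the alternatives run this adjusted p ranged from 0.0024 to 0.19. Without HSC3 vehicle library 1, which held 20 of the counts, the difference was -4.89 (edgeR adjusted p = 0.0024). That fit left 2 and 0 counts in the HSC3 vehicle libraries, so its value is no size and adds no support. APOBEC3D passed the filter on low counts in the baseline fit through the CAL27 libraries, where it was higher. In GENCODE v44, 83.2% of the exon bases of APOBEC3D also lie in a gene on the same strand, ENSG00000284554, so how reads on both were counted bears on its level and was not given in the sources used here.

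APOBEC3H had 6, 2 and 8 counts with vehicle and 20, 10 and 10 counts with DOX in CAL27 cells, too few for the test. The DOX libraries were all above the vehicle libraries, by a few counts each. In HSC3 cells it had 0, 20 and 24 counts with vehicle and 28, 44 and 26 counts with DOX. There too the DOX libraries lay above the vehicle libraries in counts, but in CPM they overlapped, at 0, 0.243 and 0.201 CPM with vehicle and 0.189, 0.326 and 0.215 CPM with DOX. The log2 fold change was 0.72 (interval -1.75 to 3.20, edgeR adjusted p = 0.70). Between the lines with vehicle the difference was 1.75 (interval -0.48 to 3.97, edgeR adjusted p = 0.16), and 2.33 without HSC3 vehicle library 1, the library with no count (edgeR adjusted p = 0.018).

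Levels of different members were compared per length, as CPM per kilobase of exon, where exons of all transcripts of a gene are merged. In CAL27 vehicle libraries APOBEC3C led at 60.0 ± 2.5, followed by APOBEC3F at 9.11 ± 0.222, APOBEC3G at 6.79 ± 0.159 and APOBEC3B at 5.65 ± 0.227 CPM per kb. By this length these 4 members did not overlap with their neighbours in the order. Merged exons were 5375 bases for APOBEC3G and 5215 for APOBEC3F, but their longest transcripts were 2775 and 4496 bases. The order of APOBEC3F and APOBEC3G therefore depends on the length used. APOBEC3A at 0.198 and APOBEC3D at 0.135 CPM per kb overlapped, and APOBEC3H was lowest at 0.0341 CPM per kb. With DOX the CAL27 order by merged exons was kept, but APOBEC3G at 6.08 and APOBEC3B at 5.4 CPM per kb now overlapped, as did the 3 lowest members.

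In HSC3 vehicle libraries APOBEC3C was again first at 48.4 ± 2.33 CPM per kb, but APOBEC3B came second at 7.46 ± 0.77 and APOBEC3F the third at 3.27 ± 0.501 CPM per kb. The other members, from APOBEC3G at 0.167 down to APOBEC3D at 0.0261 CPM per kb, overlapped with their neighbours. With DOX the first members were APOBEC3C at 39.6 ± 0.873, APOBEC3B at 7.91 ± 0.968 and APOBEC3F at 4.68 ± 0.369 CPM per kb, still without overlap.

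**Figure D3:**
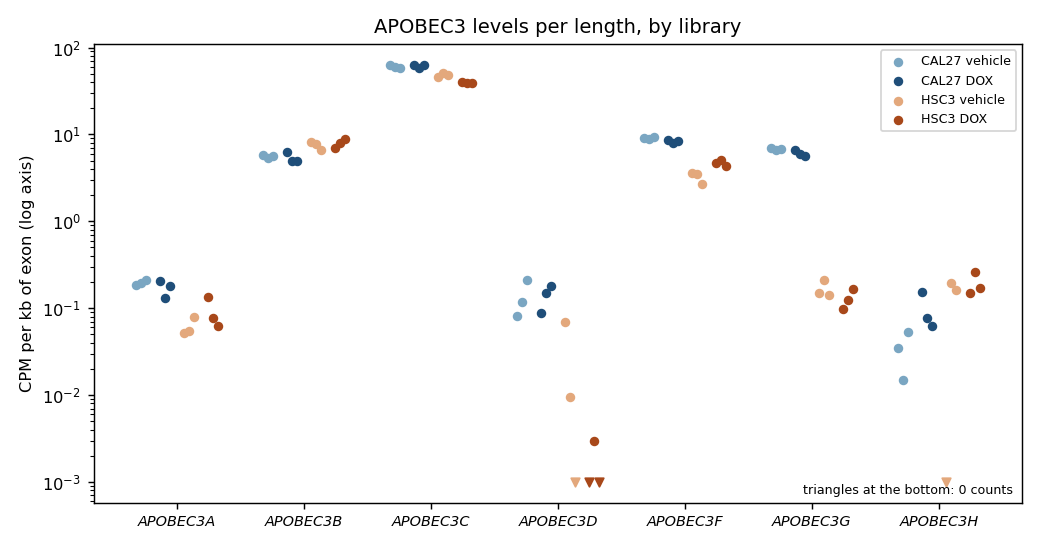
CPM per kb of merged exon on a log axis for each APOBEC3 gene in the 12 libraries, with triangles at the bottom for libraries with 0 counts. APOBEC3C lies highest in all groups (39.6 to 61.0 CPM per kb as group means), and APOBEC3G lies with APOBEC3B and APOBEC3F in CAL27 cells but with the low members in HSC3 cells.

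Summed over the 7 genes, the level was 81.9 ± 2.55 CPM per kb in CAL27 vehicle and 81.2 ± 4.16 CPM per kb in CAL27 DOX libraries (n = 3 each). In HSC3 cells it was 59.5 ± 2.43 with vehicle, from 58.0 to 62.3, and 52.6 ± 0.361 CPM per kb with DOX, from 52.3 to 53.0. The groups overlapped in CAL27 and did not in HSC3 cells. APOBEC3C made up 73.2% ± 0.981 of the sum in CAL27 vehicle, 75.1% ± 1.01 in CAL27 DOX, 81.4% ± 2.0 in HSC3 vehicle and 75.3% ± 1.69 in HSC3 DOX libraries. With the longest transcript as the length the CAL27 shares were 66.7% and 69.0%. APOBEC3F took 5.49% ± 0.812 of the sum in HSC3 cells with vehicle and 8.9% ± 0.761 with DOX. Relative to APOBEC3C, which needs no scaling between libraries, APOBEC3F was at 6.76% ± 1.16 in HSC3 vehicle libraries (5.54% to 7.85%) and 11.8% ± 1.07 in HSC3 DOX libraries (10.9% to 13.0%). In CAL27 cells the same ratio went from 15.2% ± 0.872 (14.6% to 16.2%) to 13.7% ± 0.2 (13.5% to 13.9%). In neither line did the ratio overlap between vehicle and DOX. This ratio joins the members whose interaction passed the adjusted p, so it repeats their values and adds no support. Ratios of other genes were not computed.

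**Figure D4:**
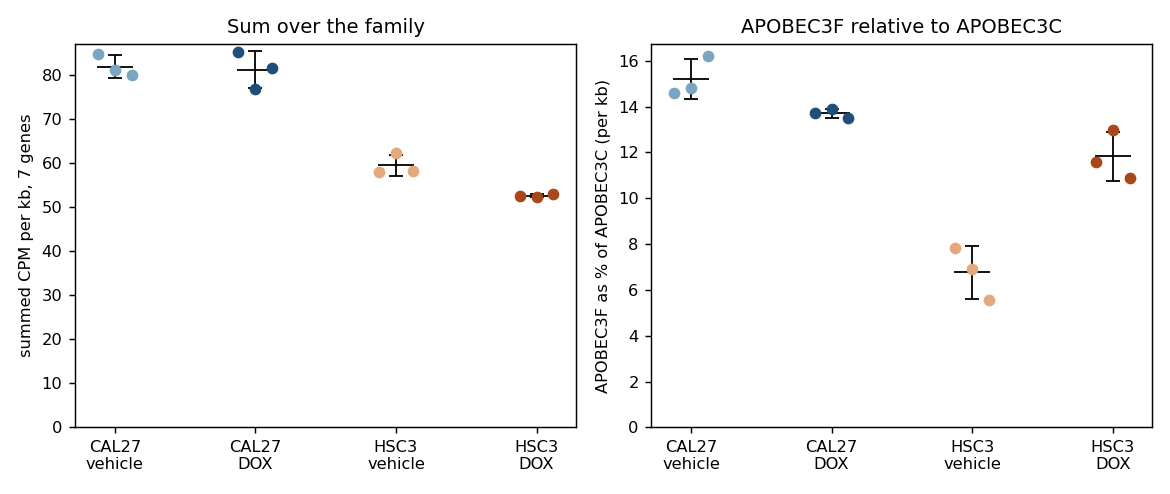
Left, the level summed over the 7 APOBEC3 genes in CPM per kb, and right, APOBEC3F as a percent of APOBEC3C per kb, with points for libraries and a line and bars for the mean ± SD of 3 libraries. The sum is lower with DOX in HSC3 cells (52.3 to 53.0 against 58.0 to 62.3), and the ratio is higher with DOX in HSC3 cells and lower with DOX in CAL27 cells.

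The relatives of the family outside the cluster were rare. APOBEC1, the editor of APOB RNA, was at 0.121 ± 0.0169 CPM with vehicle and 0.0231 ± 0.0203 CPM with DOX in CAL27 cells, and at 0 in all HSC3 libraries. It was near the floor with DOX and passed the filter on low counts only through the CAL27 vehicle libraries. Its test of DOX is therefore not read as a result. APOBEC2, which has no known deaminase activity, was at 0.468 and 0.408 CPM in CAL27 and at 0.0658 and 0.0676 CPM in HSC3 cells. APOBEC4 was at 0.112 and 0.054 CPM in CAL27 cells, and at 0.0173 and 0 CPM in HSC3 cells.

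Genes around the family were described by lists, each with its counts and its median. The list of interferon signalling genes holds receptors, STAT and IRF factors and sensors. In CAL27 cells 14 of 20 were lower and 0 higher by the adjusted p in edgeR, and 7 were called lower. Of all genes there, 21.8% were lower and 22.6% higher, and 5.11% were called lower. The median log2 fold change was -0.59 against -0.0052 for all genes. The log2 fold change was -1.84 for IRF7, a driver of type I interferon transcription, -1.20 for IFNGR1, a chain of the interferon gamma receptor, -1.16 for IFIH1, the MDA5 sensor, and -1.14 for STAT2. In HSC3 cells 9 of 20 were lower and 0 higher, 2 were called lower, and the median was -0.38 against -0.0097. Of all genes in HSC3 cells, 15.4% were lower and 13% higher, and 4.4% were called lower. There it was -1.44 for IFNGR1, -1.39 for IFNLR1, a chain of the interferon lambda receptor, and -0.94 for IRF7. The lists were put together with earlier results of these data known, so their direction is no independent evidence.

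Other restriction factors, a list of antiviral genes that are not cytidine deaminases, were counted in the same way, beside the same shares of all genes. In CAL27 cells 15 of 18 tested were lower and 1 higher by the adjusted p in edgeR, 7 were called lower, and the median log2 fold change was -0.50. MX2, an inhibitor of HIV-1 nuclear import, was at -3.22, TRIM22 at -2.81, IFITM1, which blocks viral entry, at -2.08 and BST2, the tetherin that holds virions at the cell surface, at -1.69. In HSC3 cells 10 of 18 were lower and 0 higher, 3 were called lower, and the median was -0.28. MX2 was at -2.37, BST2 at -1.40, IFITM1 at -0.75 and SAMHD1, which depletes dNTPs, at -0.69. The corresponding median of the APOBEC3 members was -0.10 in CAL27 cells. For HSC3 cells it was 0.30, but there APOBEC3H at 0.72 and APOBEC3A at 0.55 had few counts and wide intervals, and the other tested members were at 0.52 for APOBEC3F, 0.08 for APOBEC3B, -0.29 for APOBEC3C and -0.36 for APOBEC3G. No test compared the lists.

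**Figure D5:**
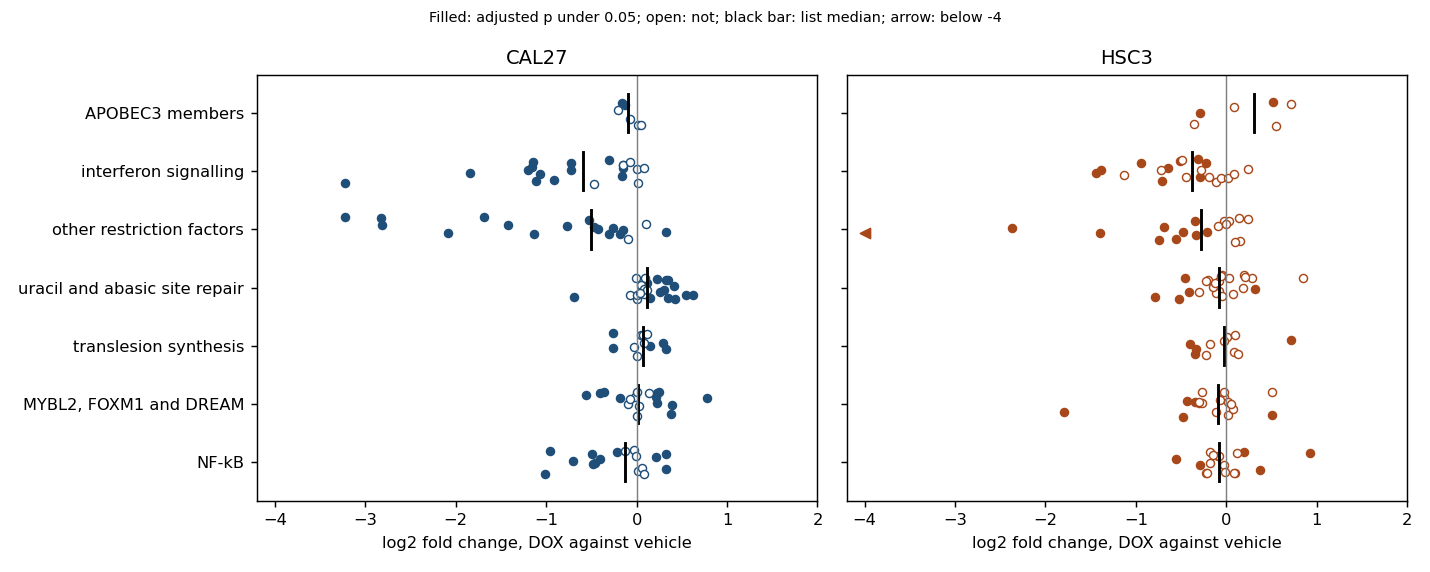
Log2 fold changes of DOX against vehicle in CAL27 (left) and HSC3 cells (right) for the genes of each list, with filled points at an edgeR adjusted p under 0.05, a black bar at the list median and an arrow for GBP5, which was at 0 counts in HSC3 DOX libraries and whose fitted value is no size. Interferon signalling and other restriction factors lie mostly below 0, with medians of -0.59 and -0.50 in CAL27 cells, while APOBEC3 members lie near 0 in CAL27 cells.

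Downstream of the deaminases, genes of uracil and abasic site repair were counted next. In CAL27 cells 12 of 23 were higher and 1 lower with DOX by the adjusted p in edgeR, 0 were called, and the median was 0.12. Of all genes, 22.6% were higher and 21.8% lower there. EXO1, an exonuclease of mismatch repair, was at 0.62 on the log2 scale, FEN1, the flap endonuclease, at 0.55, PARP1 at 0.42 and MSH6 at 0.41. In HSC3 cells 1 was higher and 4 lower, where 13% and 15.4% of all genes were, 0 were called, and the median was -0.078. UNG, the uracil-DNA glycosylase, fell by 0.79 on the log2 scale there, from 59.7 ± 2.19 to 34.5 ± 2.19 CPM. TDG, another glycosylase, was at -0.52, DUT, the dUTPase that keeps uracil out of new DNA, at -0.46 and LIG1, a DNA ligase, at -0.41. For UNG the interaction of line and DOX was -1.09 (edgeR adjusted p = 5.4e-07), with CAL27 levels of 71.8 ± 2.51 CPM with vehicle and 88.7 ± 3.51 CPM with DOX. By the interaction test 10 of the 23 genes were lower in response in HSC3 cells and 1 was higher. Of all genes, 12.3% were lower and 8.25% higher by that test.

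Known regulators of APOBEC3B transcription were counted as well. The MYBL2, FOXM1 and DREAM list, whose complex holds cell cycle genes silent in resting cells, had 7 of 18 genes higher and 4 lower in CAL27 cells and 1 higher and 5 lower in HSC3 cells by the adjusted p in edgeR. Called were 0 in CAL27 cells and, with HSC3, 1 gene, RBL1, the p107 pocket protein, which fell by 1.79 on the log2 scale. E2F1 rose by 0.78 and FOXM1 by 0.39 in CAL27 cells. NF-kB genes, which include the protein kinase C branch that induces APOBEC3B, had 3 of 17 higher and 8 lower in CAL27 cells, and 3 higher and 2 lower in HSC3 cells. Their medians were -0.134 and -0.084, beside the same shares of all genes. BIRC3, an NF-kB target, fell by 1.01 in CAL27 cells and rose by 0.93 in HSC3 cells. TNFAIP3, the A20 inhibitor, fell by 0.96 and NFKBIA, the inhibitor IkB alpha, by 0.70 in CAL27 cells. PRKCA, the only protein kinase C gene of the list, rose by 0.22 in CAL27 (edgeR adjusted p = 0.012) and fell by 0.56 in HSC3 cells (edgeR adjusted p = 0.00066), an interaction of -0.78 (edgeR adjusted p = 0.0001). APOBEC3B itself passed no test of DOX in either line.

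Across the 12 libraries the pattern of each member whose log2 CPM averaged 1 or more was compared with that of 9232 genes by Pearson's correlation of log2 CPM, as a description. APOBEC3G was most like CAT (r = 0.998), TFDP2 (0.997) and SORD (0.997), and APOBEC3F most like TKFC (0.991), ZSCAN31 (0.990) and ABCC5 (0.986). APOBEC3C was most like DUT (0.987), ARSB (0.984) and CTSV (0.984), and APOBEC3B most like PLD3 (0.970), DELE1 (0.960) and C12orf57 (0.957). Among the members, APOBEC3F and APOBEC3G had an r of 0.920 and APOBEC3C and APOBEC3G of 0.917, while APOBEC3B had negative values with all 3, from -0.849 to -0.742. The 12 libraries fall into 4 groups in 2 lines, so these values follow the line more than any variation between replicates.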

How the data were processed

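RNA from cells cultured in triplicate was made into TruSeq Stranded mRNA libraries by the authors. The submitters' processing notes name FastQC 0.11.9, STAR 2.7.9a, Subread 2.0.1 with featureCounts and GRCh38. The deposited values are whole-number counts per gene symbol without normalization, in 1 table per line. The annotation, strand setting and handling of duplicated reads are not given in the sources used here. The CAL27 DOX columns are numbered 4 to 6 and were mapped to their group only. No replicate pair held the same counts, and each library was 1 replicate. Libraries of a group may be technical repeats, in which case p-values measure that spread only.

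Counts were analysed in R 4.3.3 with edgeR 4.0.16 (TMM, filterByExpr at 10 counts and a total of 15, robust glmQLFit and glmQLFTest, two-sided). DOX was tested within each line, and the baseline and interaction in 1 fit of 12 libraries, with p-values adjusted after Benjamini and Hochberg over every gene tested. Coordinates, lengths and shared windows come from GENCODE v44. The number of counts per molecule was estimated from genes of low expected count that had none. On simulated data the fits recovered nearly all of the large changes put in, smaller changes were not simulated, and the number of counts per molecule came out too high but in the right order. Alternatives were DESeq2 1.42.0, DESeq2's size factors or library totals, other filters (none, or 50 counts in 3 libraries), other fold thresholds, counts divided by the counts per molecule, other samples in the fit, the replicate block and each library left out. All 7 members and MUC1 were named. Of a list, at most 4 genes per comparison were named, those past the adjusted p with the largest change among genes whose log2 CPM averaged 1 or more, and the relatives and the neighbours of the cluster by name. Some genes that this rule names are not reported here. Members and lists were chosen with earlier results of these data known. Protein sequences and promoters were not analysed here.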

Additional observations from a re-analysis of the deposited data

Results flagged for a closer look

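The response to DOX differed between the lines for 2 members by the interaction test in edgeR. The log2 response of APOBEC3F was higher in HSC3 than in CAL27 cells by 0.65 (adjusted p = 0.0026), with all 3 HSC3 DOX libraries above and all 3 CAL27 DOX libraries below the vehicle libraries of their line. The log2 response of APOBEC3C was lower in HSC3 than in CAL27 cells, a difference of -0.31 (adjusted p = 0.0082). HSC3 DOX libraries also had the most counts per molecule, 9.2 to 17.5. With counts divided by that number first, the difference was 0.66 for APOBEC3F (edgeR adjusted p = 0.00021) and -0.30 for APOBEC3C (edgeR adjusted p = 0.0053). Over all alternatives run, the interaction was 0.54 to 0.74 for APOBEC3F (adjusted p = 1.4e-05 to 0.009 by edgeR or DESeq2) and -0.34 to -0.27 for APOBEC3C (adjusted p = 0.0012 to 0.04).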

How the results depend on the processing

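The baseline calls of APOBEC3A, APOBEC3F and APOBEC3G, the HSC3 responses and the interactions of APOBEC3C and APOBEC3F kept their direction and their side of an adjusted p of 0.05 under every alternative that tested them (edgeR or DESeq2). The filter of 50 counts in 3 libraries removed APOBEC3A, and 2 members were then called lower at baseline. With a fold change above 1.5 the genes called lower and higher were 1848 and 714 for CAL27, 1514 and 798 for HSC3 and 1293 and 939 for the interaction, and 5191 and 4399 at baseline, and 1 member, APOBEC3F, was then called higher for the interaction. With no fold threshold they were 4203 and 4351, 2782 and 2342, 2547 and 1708, and 6679 and 6341 at baseline. Members called were then 2 lower for CAL27, 1 lower and 1 higher each for HSC3 and the interaction, and 4 lower and 1 higher at baseline. With a filter of 50 counts in 3 libraries, 148 genes were called higher in CAL27 cells. In the fit of 12 libraries 568 were lower in CAL27, 1237 and 545 lower and higher in HSC3 cells, and 1 member, APOBEC3D, was lower in HSC3 cells. APOBEC3D passed the filter in that fit through the CAL27 libraries and had at most 1 count in each HSC3 DOX library. DESeq2 called 1 member, APOBEC3D, lower for the interaction. With the longest transcript, the APOBEC3C share was 66.7% with vehicle and 69.0% with DOX in CAL27 cells. Other causes were not tested.

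Leaving out 1 library at a time gave 928 to 1079 genes lower and 227 to 297 higher in CAL27 cells, 654 to 938 and 239 to 340 in HSC3 cells, 3631 to 4373 and 2571 to 2806 at baseline, and 488 to 889 and 352 to 606 for the interaction. MUC1 was at -4.28 to -4.16 with CAL27 and -3.12 to -2.61 with HSC3. Members called were 3 to 4 lower and 0 to 1 higher at baseline (1 without HSC3 vehicle library 1, APOBEC3H) and 0 to 1 lower for the interaction (1 without HSC3 vehicle library 3, APOBEC3D). By the adjusted p alone, the 2 members lower in CAL27 cells became 1 without vehicle library 3 or DOX library 6, and 0 without DOX library 5 or in the fit of 12 libraries. Signs turned where no call was made. APOBEC3D in CAL27 cells ranged from -0.235 to 0.504 and was negative without vehicle library 1 (-0.235), vehicle library 2 (-0.0438) and DOX library 6 (-0.187). APOBEC3C in CAL27 cells ranged from -0.0186 to 0.0585 and was negative without vehicle library 3 (-0.0186) and DOX library 4 (-0.00323). APOBEC3B in HSC3 cells ranged from -0.00761, without DOX library 3, to 0.175, and the APOBEC3G interaction from -0.395 to 0.0102, the latter without HSC3 DOX library 1.

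With the replicate number as a block, HSC3 cells had 753 genes lower and 252 higher, and APOBEC3F was at 0.52 (edgeR adjusted p = 0.0083) and APOBEC3C at -0.29 (edgeR adjusted p = 0.015). Deviations of same-numbered HSC3 libraries had correlations of -0.19, 0.34 and -0.33, within the -0.43 to 0.47 of libraries with different numbers. Such deviations are taken from a mean of only 3 libraries, so they cannot decide whether same-numbered samples were paired. For vehicle libraries across the lines the same-numbered correlations were 0.0992, 0.139 and 0.196, with each of 3 closest to its own number. The block there left 3866 genes lower and 2649 higher, with APOBEC3D at -2.89 (edgeR adjusted p = 0.045). APOBEC3D had only 20, 2 and 0 counts in those HSC3 libraries. No paired analysis was possible because the CAL27 DOX columns carry no replicate number of the labels, for CAL27 cells and the interaction.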

Other observations

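Of genes of translesion synthesis, which copy past abasic sites, 3 of 11 were higher and 2 lower in CAL27 cells by the adjusted p in edgeR, where 22.6% and 21.8% of all genes were. In HSC3 cells 1 was higher and 3 lower, where 13% and 15.4% were. The medians were 0.068 and -0.032. PCNA, the sliding clamp, changed by 0.29 (CAL27) and -0.40 (HSC3) on the log2 scale, an interaction of -0.69 (edgeR adjusted p = 2.9e-06). POLI, a translesion polymerase, was at 0.71 in HSC3 cells.

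The genes on either side of the cluster did not share a direction. CBX6, a Polycomb reader before APOBEC3A, was at 122 ± 0.683 CPM with vehicle and 139 ± 7.32 CPM with DOX in CAL27 cells (log2 fold change 0.18, edgeR adjusted p = 0.00084). In HSC3 cells it was at 23.7 ± 0.859 and 45.3 ± 2.73 CPM (log2 fold change 0.93, edgeR adjusted p = 1.5e-05), so that like APOBEC3F it was lower in HSC3 cells with vehicle and higher there with DOX. CBX7, after APOBEC3H, was at 8.88 and 7.89 CPM in CAL27 and 2.55 and 3.08 CPM in HSC3 cells (edgeR adjusted p = 0.11 and 0.42). PDGFB, a growth factor, rose by 0.82 in CAL27 and 1.04 in HSC3 cells, and SUN2, of the nuclear envelope, was at -0.31 and -0.47. NPTXR was at 0.22 with CAL27 and -1.47 with HSC3 cells, RPL3, a ribosomal protein, of -0.34 and 0.05, and DNAL4 of 0.12 and 0.70 (edgeR adjusted p = 0.26 and 0.075). APOBEC3A_B, a fusion allele in the list, had no row.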
